A study of Homo sapiens with 9 samples.

Results

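The aminoacyl-tRNA synthetases join each amino acid to its transfer RNA. They were followed here as 38 genes chosen by symbol, of the 16222 genes in the count table: 19 whose enzymes work in the cytosol (symbols ending in 1, with FARSA and FARSB), 16 whose enzymes work in mitochondria (symbols ending in 2) and 3 scaffold proteins. All 38 had a row and passed the filter on low counts, and the lowest count of a member in any library was 165. The 9 libraries came from THP-1, a human monocytic leukaemia line whose genotype the labels give as WT. All cells had been exposed to PMA, a phorbol ester after which the line adheres and takes on macrophage features. Cells were then given LPS together with ABS (LPS_ABS, 3 libraries), LPS alone (3 libraries) or PBS (control, 3 libraries). LPS is lipopolysaccharide, a bacterial cell wall component that activates macrophages through Toll-like receptor signalling. The labels leave ABS unexplained, and the series title mentions apoptotic bodies. Neither doses nor times are stated there. No label tells whether the 3 libraries of a group came from separate cultures, so a p-value below measures only the spread between these libraries, which may be technical.

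Mitochondria have their own ribosomes and their own transfer RNAs, and so need a separate set of synthetases, encoded in the nucleus. GARS1 and KARS1 are exceptions, each a single gene that supplies both compartments. EPRS1 carries glutamyl and prolyl activity in one chain, while mitochondria use EARS2 for glutamate and PARS2 for proline. FARSA and FARSB are the subunits of the cytosolic phenylalanine enzyme, and FARS2 does that work alone. Many cytosolic enzymes sit in the multisynthetase complex, which is held together by AIMP1, AIMP2 and EEF1E1. When charged transfer RNA runs short, the kinase GCN2 (EIF2AK4) phosphorylates the initiation factor eIF2, and translation of the transcription factor ATF4 goes up. ATF4 acts with C/EBP partners on genes of amino acid transport, synthesis and charging. WARS1, the tryptophan enzyme, is in addition a known interferon-gamma target, and it can be secreted.

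Total counts were 38506162 to 38893597 per library with LPS_ABS, 39168526 to 41679412 with LPS and 39791729 to 41608801 in controls. All 10 monocyte and macrophage markers were tested, and their summed level was 2817 to 2993 CPM with LPS_ABS, 2327 to 2400.2 CPM with LPS and 2143 to 2197 CPM in controls. CPM is the count scaled to library size after TMM normalization (trimmed mean of M-values). Summed fibroblast markers lay at 3.55 to 6.20 CPM with LPS_ABS, 1.84 to 3.22 CPM with LPS and 2.07 to 3.70 CPM in controls. Markers of B cells reached at most 2.66 CPM, and those of chondrocytes, T cells, endothelium and epithelium reached at most 0.691 CPM in sum in any library. Several markers of these other types had no row, and the part of the marker differences in the results was not tested. The LPS_ABS libraries stood apart in how counts followed GC content. For each library a slope on GC content was taken of log2 CPM minus each gene's mean over the 9 libraries. Per 10 points of GC content it was 0.30 ± 0.07 (SD, n = 3) with LPS_ABS, -0.15 ± 0.14 with LPS and -0.15 ± 0.02 in controls. These slopes are relative between libraries, so a negative one does not show that counts fell with GC content. Transcripts of the cytosolic members had a median GC content of 48.6%, those of the mitochondrial members 51.2%, those of the scaffolds 36.9%, and all genes tested 49.2%. For that reason the counts of calls in the comparisons with LPS_ABS, and most differences of the genes described there, are given as counted and after a correction of this trend. The trend went with the LPS_ABS group and its source was not tested, so the correction may also remove real change.

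Short stretches around the gene starts are shown first, since ATF4 and interferon-driven factors are known regulators of synthetase genes. The letters searched were TGATGNAA, the core bound by C/EBP-ATF pairs, on both strands from 250 bases before to 50 bases after each RefSeq gene start (GRCh38.p14). A window was found for 33 of the 38 members. The core lay in 7 of 16 cytosolic, 1 of 14 mitochondrial and 0 of 3 scaffold genes with a window, and in 4.46% of all 27305 genes with one. Capitals mark the match, and the sequences read 5′ to 3′ along the gene:
AARS1, chr16:70289675-70289704, minus strand: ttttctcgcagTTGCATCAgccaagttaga
CARS1, chr11:3057407-3057436, minus strand: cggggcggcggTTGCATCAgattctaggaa
GARS1, chr7:30594834-30594863, plus strand: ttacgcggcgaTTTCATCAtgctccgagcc
IARS1, chr9:92293692-92293721, minus strand: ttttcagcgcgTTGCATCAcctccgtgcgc
MARS1, chr12:57488053-57488082, plus strand: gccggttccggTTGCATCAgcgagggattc
TARS1, chr5:33440956-33440985, plus strand: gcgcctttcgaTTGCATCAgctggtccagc
NARS1, chr18:57621804-57621833, minus strand: tctacgctctcTGATGCAAcgccggaatcg
YARS2, chr12:32756076-32756105, minus strand: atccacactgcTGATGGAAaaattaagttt
In all but NARS1 and YARS2 the core read along the other strand, and in 5 of the 8 genes those letters were TTGCATCA. WARS1 held no such core in its window. It is shown for its interferon motifs instead, as the 250 bases before its start, with the gamma-activated sequence TTCNNNGAA and the core of the interferon-stimulated response element (TTTC, any 2 bases, then TTTC, here on the other strand) in capitals:
WARS1, chr14:100375348-100375597, minus strand: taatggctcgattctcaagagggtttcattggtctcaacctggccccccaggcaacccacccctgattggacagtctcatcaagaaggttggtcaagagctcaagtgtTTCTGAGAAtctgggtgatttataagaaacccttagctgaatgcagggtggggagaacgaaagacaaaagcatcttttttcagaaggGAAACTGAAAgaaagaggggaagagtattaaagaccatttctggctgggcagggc
The element's core was also in the window of EARS2, and in 4.38% of all genes. TTCNNNGAA was also in CARS1, TARS1, PARS2 and WARS2, and in 9.38% of all genes. A match is a description of letters, not a binding site shown in these cells.

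In control cells, which had seen PMA and PBS only, the 2 classes differed in level. Per length, as the deposited FPKM (counts scaled by gene length and library total), the control means of the cytosolic members ranged from 8.09 (FARSB) to 127 (FARSA), with a median of 74.0. The mitochondrial means ranged from 1.47 (FARS2) to 40.5 (IARS2), with a median of 9.35, and 15 of the 19 cytosolic members lay above every mitochondrial one. At the top, FARSA (127 ± 10.7 FPKM), YARS1 (118 ± 3.23), QARS1 (116 ± 10.1) and KARS1 (112 ± 1.995; SD, n = 3 each) were neighbours within about their spread. By deposited FPKM the subunits of the phenylalanine enzyme were far apart: FARSA over FARSB was 22.3, 14.6 and 23.5 with LPS_ABS, 11.3, 16.4 and 16.0 with LPS, and 15.6, 17.7 and 14.0 in controls. That ratio overlapped between the 3 groups. Its size depends on the gene lengths the submitters used. The control means by CPM, without length, were 222 for FARSA and 71.8 for FARSB, and GENCODE v29 gives them 2091 and 3369 exon bases. Against such exon bases, the lengths implied by the deposited counts and FPKM are shorter for FARSA and longer for FARSB, which widens the ratio. The implied length of FARS2 is also longer than its 1978 exon bases. So the low FPKM of FARSB and FARS2 rest in part on these lengths, and which lengths are right was not checked. The summed FPKM of the cytosolic over that of the mitochondrial members was 15.6, 16.7 and 9.87 with LPS_ABS, 16.6, 17.4 and 17.2 with LPS, and 7.68, 7.36 and 7.46 in controls. Every stimulated library stood above every control, and LPS_ABS 3 was the lowest of the stimulated ones.

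**Figure D1:**
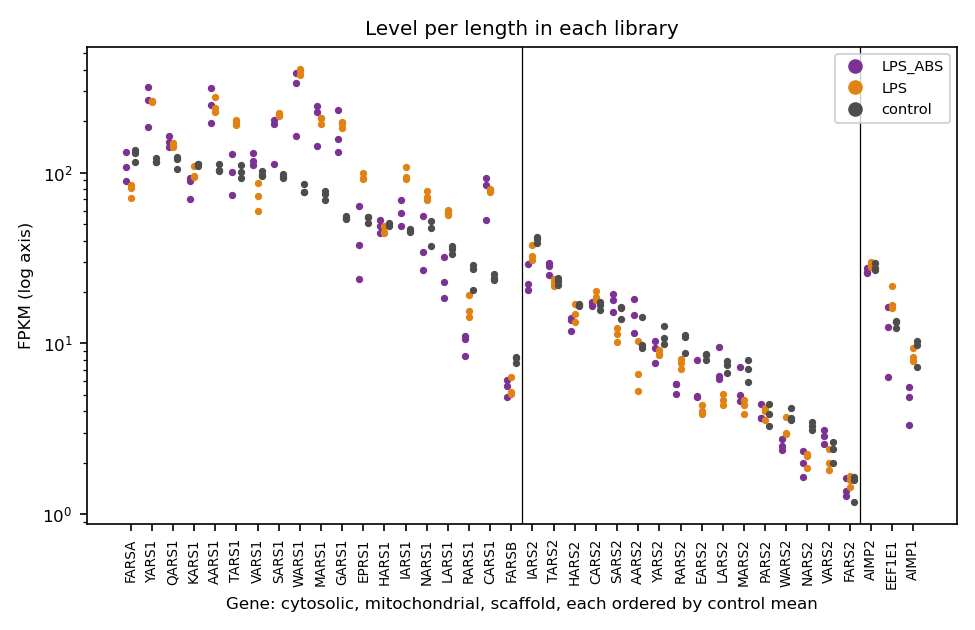
Deposited FPKM of the 38 genes (vertical log axis) in each of the 9 libraries, 1 point a library, coloured by group, with cytosolic, mitochondrial and scaffold genes in separate blocks ordered by control mean. The cytosolic control means run from 8.09 to 127 FPKM and the mitochondrial ones from 1.47 to 40.5 FPKM, and WARS1 is the highest gene with LPS.

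The comparison of LPS with control asks what the bacterial stimulus changed. Most cytosolic synthetase mRNAs rose and no mitochondrial one was called higher: 11 of 19 cytosolic members were higher and 3 lower, while 0 of 16 mitochondrial members were higher and 4 lower (quasi-likelihood test of edgeR over 12970 genes, called at an adjusted p under 0.05). Of all genes tested, 7.71% were called higher and 7.19% lower. The median log2 fold change was 0.85 over the cytosolic members, -0.28 over the mitochondrial members and -0.03 over all genes tested. The classes differed by 1.13 in their medians, and by 1.14 after GC correction. With that correction 13 cytosolic members were higher and 4 lower, and 0 mitochondrial members were higher and 5 lower, where 11.4% of all genes were called higher and 9.72% lower. In bulk libraries a changed mix of cells and changed RNA per cell cannot be told apart. The calls were read against these shares only, and no test was made of the classes as lists. All 11 cytosolic rises were among the 13 found after the correction. At an unadjusted p under 0.05, edgeR also had 0 mitochondrial members higher, with and without the correction, as had DESeq2 and limma-voom at an adjusted p under 0.05. Of the 12970 genes, DESeq2 called 1324 higher and limma-voom 1024.

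**Figure D2:**
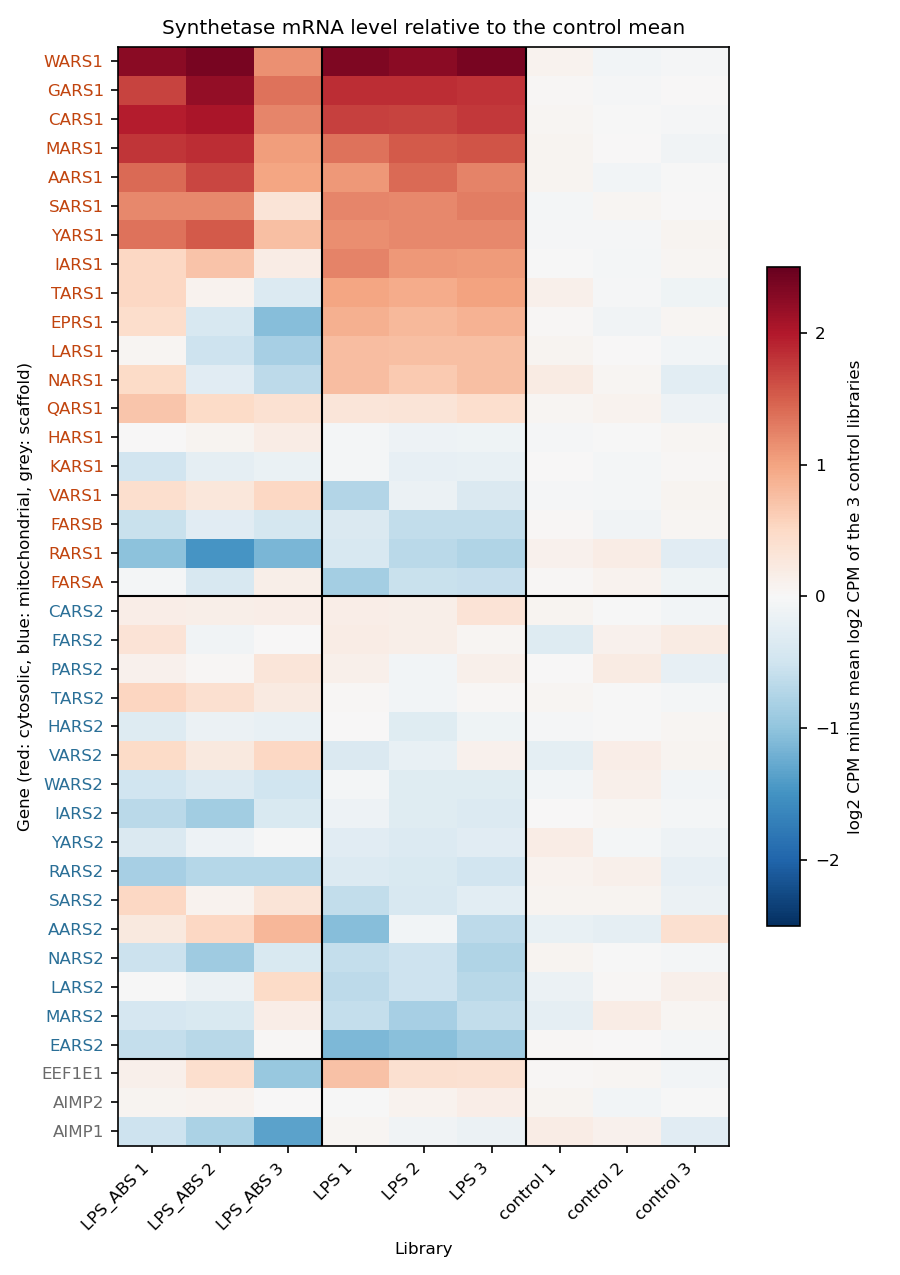
Level of each of the 38 genes in each library as log2 CPM minus the mean log2 CPM of the 3 controls, with genes in rows by class and libraries in columns. The LPS columns are red for most cytosolic genes, led by WARS1, GARS1 and CARS1, and white to blue for the mitochondrial genes, and LPS_ABS 3 is paler than LPS_ABS 1 and 2 in the upper rows.

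WARS1 had the largest change of all members. It stood at 1141, 1073 and 1167 CPM with LPS, against 239.6, 216 and 221 CPM in controls, a log2 fold change of 2.32 ± 0.24 (SE; adjusted p = 0.000152). All LPS libraries lay far above all controls. Exons of WARS1 shared 10.95% of their bases with other genes, of which WDR25 had the largest part. The counting is not stated to use strand, so those reads cannot be assigned with certainty. GARS1, which charges glycine in both compartments, had 511, 508 and 498 CPM with LPS, against 145, 139 and 143 CPM in controls (1.83 ± 0.17; adjusted p = 0.000105). CARS1, the cysteine enzyme, had 266, 262 and 275 CPM with LPS, against 84.3, 80.1 and 79.2 CPM in controls (1.72 ± 0.18; adjusted p = 0.000151). IARS1, the isoleucine enzyme of the multisynthetase complex, had 499, 447 and 442 CPM with LPS, against 211, 206 and 219 CPM in controls (1.13 ± 0.13; adjusted p = 0.000314). In these 4 genes the 2 groups were wide apart and the 3 libraries of a group were close together.

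The rise also took in MARS1, the methionine enzyme, at 513, 576 and 590.1 CPM with LPS, against 209.6, 201 and 189 CPM in controls (1.49 ± 0.18; adjusted p = 0.000314). AARS1, SARS1, YARS1 and TARS1, for alanine, serine, tyrosine and threonine, rose by 1.25, 1.23, 1.18 and 0.97 on the log2 scale. Each of these 9 enzymes was called with any 1 library left out. LARS1, the leucine enzyme, had 282, 278 and 277 CPM with LPS, against 172, 165 and 158 CPM in controls (0.76 ± 0.18; adjusted p = 0.0137), and lost its call without control 2 or control 3. EPRS1 had 464, 441 and 459 CPM with LPS, against 259, 236 and 261 CPM in controls (0.85 ± 0.27; adjusted p = 0.0494). Its groups did not overlap, yet its adjusted p rose above 0.05 without any 1 of the 6 libraries, reaching 0.146. NARS1 (0.71 ± 0.23; adjusted p = 0.0544) and QARS1 (0.34 ± 0.12; adjusted p = 0.065) were not called as counted and were called higher after GC correction.

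Not every cytosolic enzyme followed. Both subunits of the phenylalanine enzyme fell: FARSA by 0.66 on the log2 scale (adjusted p = 0.0118) and FARSB by 0.53 (adjusted p = 0.0171). RARS1, the arginine enzyme, fell by 0.62 (adjusted p = 0.0278). FARSA lost its call without control 2, FARSB lost its call without LPS 2, LPS 3 or any 1 control, and RARS1 without LPS 2, LPS 3, control 1 or control 2. HARS1 (-0.09 ± 0.11), KARS1 (-0.15 ± 0.12) and VARS1 (-0.40 ± 0.14), for histidine, lysine and valine, were not called as counted, and VARS1 was called lower after GC correction (-0.36; adjusted p = 0.0225). KARS1, which like GARS1 serves both compartments, had 238, 214 and 216 CPM with LPS, against 248, 239.6 and 253 CPM in controls (adjusted p = 0.441), a small distance beside that of GARS1. By place, 4 of the 7 members of the multisynthetase complex (EPRS1, IARS1, LARS1, MARS1, QARS1, RARS1 and KARS1) were higher and 1 lower, with a median of 0.76. Of the other 12 cytosolic members 7 were higher and 2 lower, with a median of 1.08. This grouping was made after the values were seen, and the difference between the groups was not tested.

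Among the mitochondrial enzymes EARS2, which charges glutamate, changed most. It stood at 21.3, 22.7 and 25.3 CPM with LPS, against 47.7, 47.3 and 45.1 CPM in controls (-1.02 ± 0.18; adjusted p = 0.00338), and all LPS libraries lay well below all controls. It kept its call with any 1 library left out, the only mitochondrial call to do so.
LARS2, the leucine enzyme, had 25.6, 28.3 and 24.99 CPM with LPS, against 36.5, 40.95 and 43.8 CPM in controls (-0.62 ± 0.17; adjusted p = 0.0263). MARS2, for methionine, had 13.5, 11.4 and 13.3 CPM with LPS, against 17.4, 23.1 and 21.1 CPM in controls (-0.69 ± 0.19; adjusted p = 0.0282). NARS2, for asparagine, had 5.45, 5.71 and 4.86 CPM with LPS, against 8.56, 8.19 and 7.90 CPM in controls (-0.62 ± 0.18; adjusted p = 0.039). In all 3 the groups did not overlap, and each lost its call without some libraries: LARS2 and NARS2 without any 1 of the 6, MARS2 without LPS 2, LPS 3, control 2 or control 3. The other 12 mitochondrial members were not called, with log2 fold changes from -0.57 (AARS2) to 0.22 (CARS2). Of these, SARS2 was called lower after GC correction (-0.38; adjusted p = 0.0456).

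The 3 scaffold proteins were not called with LPS, and 0 of them had an unadjusted p under 0.05 by edgeR or were called by DESeq2 or limma-voom. AIMP1 had 39.6, 36.2 and 34.8 CPM with LPS, against 43.5, 41.2 and 31.3 CPM in controls (-0.07 ± 0.20; adjusted p = 0.859). AIMP2 had 56.6, 60.3 and 63.7 CPM with LPS, against 59.8, 54.5 and 56.9 CPM in controls (0.08 ± 0.11; adjusted p = 0.704). Both overlapped between the groups. EEF1E1 had 24.97, 19.9 and 19.6 CPM with LPS, against 15.4, 15.6 and 14.4 CPM in controls (0.51 ± 0.26; adjusted p = 0.226), with no overlap. Other genes covered 38.7% of the exon bases of AIMP2, 26.9% of those of EEF1E1 and 11.7% of those of AIMP1, so these 3 values are uncertain to that extent.

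Setting each cytosolic enzyme beside the mitochondrial enzyme for the same amino acid cancels the scaling of libraries. Of 17 such pairs, 13 had a higher cytosolic to mitochondrial ratio with LPS than in controls, with a median difference of 1.38 on the log2 scale. EPRS1 and FARS2 each enter 2 pairs. The widest was WARS1 over WARS2, whose log2 ratio of CPM was 6.63, 6.799 and 6.92 with LPS, against 4.39, 4.04 and 4.28 in controls. At the other end was FARSA over FARS2, at 3.54, 3.88 and 3.94 with LPS, against 4.92, 4.56 and 4.25 in controls, a difference of -0.79. In 3 pairs both genes were called and moved in opposite directions. EPRS1 over EARS2 stood at 4.44, 4.28 and 4.18 with LPS, against 2.44, 2.32 and 2.53 in controls. LARS1 over LARS2 stood at 3.46, 3.301 and 3.47 with LPS, against 2.23, 2.01 and 1.85 in controls. MARS1 over MARS2 stood at 5.24, 5.65 and 5.47 with LPS, against 3.59, 3.12 and 3.16 in controls. None of the 3 overlapped between the groups.

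**Figure D3:**
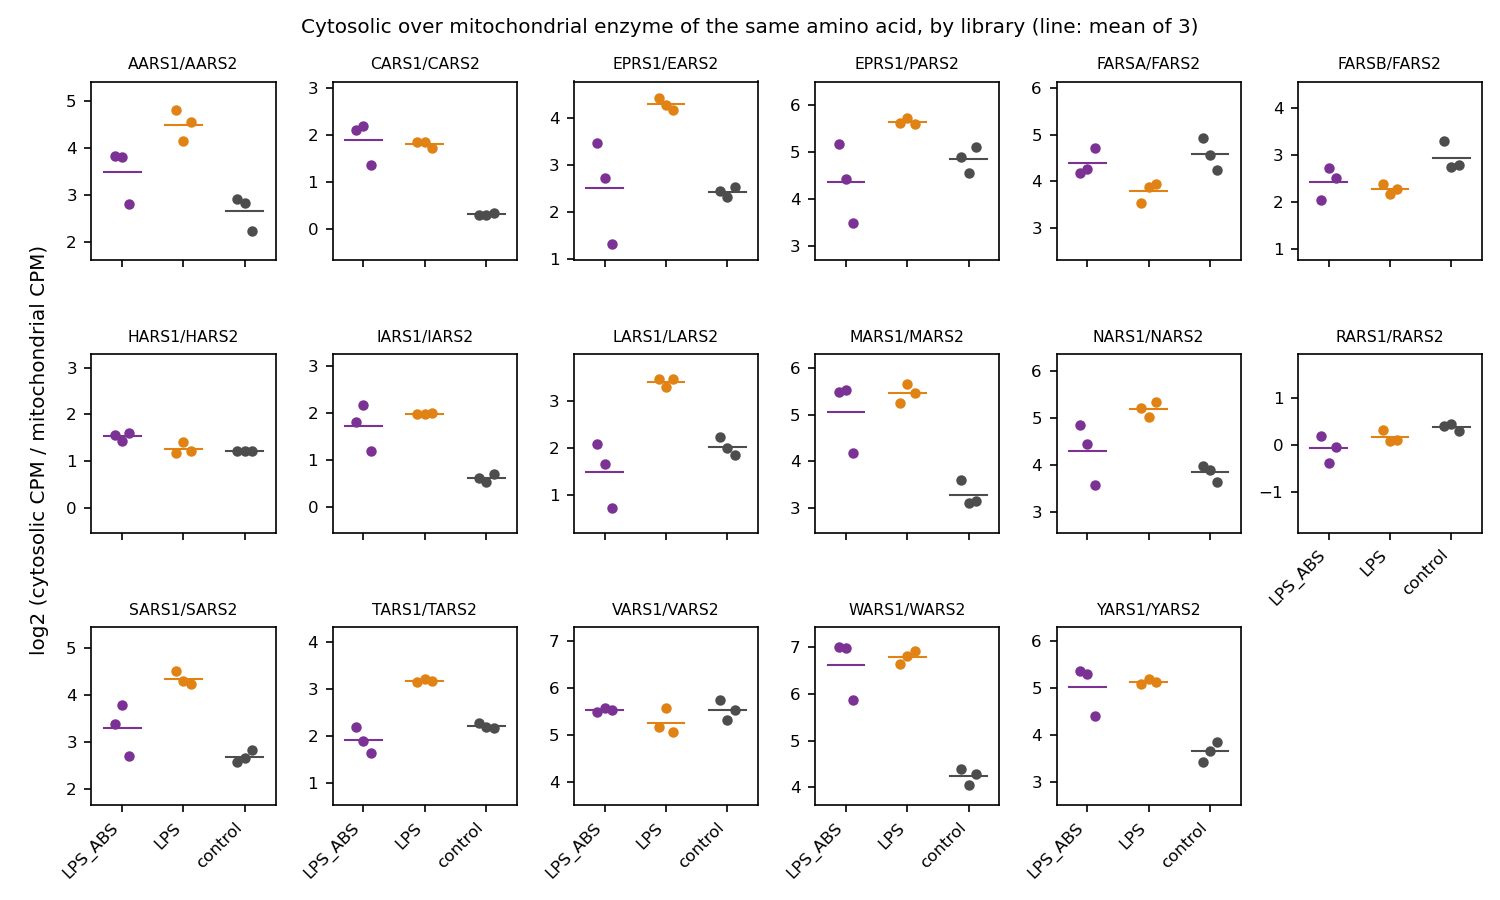
log2 ratio of the CPM of a cytosolic enzyme to that of the mitochondrial enzyme for the same amino acid, for 17 pairs, with 1 point a library, a line at the mean of 3 and a vertical axis of the same span in each panel. The LPS points lie above the controls in most panels, whereas FARSA/FARS2, FARSB/FARS2, RARS1/RARS2 and VARS1/VARS2 have lower LPS means, and the LPS_ABS points are spread more widely than either other group in many panels.

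LPS_ABS against LPS asks what differed once ABS was added. As counted, 2 cytosolic members were higher (FARSA and VARS1) and 6 lower (EPRS1, IARS1, LARS1, NARS1, RARS1 and TARS1). Of the mitochondrial members 6 were higher (AARS2, EARS2, LARS2, SARS2, TARS2 and VARS2) and 1 lower (IARS2), and of the scaffolds 0 were higher and 1 lower (AIMP1). Of all genes tested, 16.8% were called higher and 18.8% lower, so calls were frequent among all genes in this comparison. GC content moved with these changes. Of the 13 members with a GC content under 45%, 11 had a log2 fold change below 0, and of the 9 over 55%, 7 had one above 0. Over the 38 members, which share the same libraries, Spearman's rho between GC content and log2 fold change was 0.73 as counted and 0.10 after correction, given as a description. For LPS against control it was 0.003 as counted and 0.001 after correction. The correction takes out each library's trend on GC content, so a low rho after it follows from how it is made.

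After GC correction 2 cytosolic members were higher (FARSB and VARS1) and 1 lower (LARS1), 1 mitochondrial member was higher (LARS2) and 1 lower (CARS2), and 0 scaffolds were called in either direction, with 0 at an unadjusted p under 0.05. Without the correction DESeq2 and limma-voom each called 1 scaffold lower and 0 higher. Of all genes tested, 4.98% were then called higher and 4.21% lower, against 3 of 38 members called higher and 2 of 38 lower. VARS1, LARS1 and LARS2 were the members called both as counted and after correction. Of the 16 calls made as counted, 9 held with any 1 library left out, and those on FARSA, NARS1, RARS1, EARS2, IARS2, TARS2 and VARS2 did not. FARSA and EARS2 lost theirs without LPS 1 alone. Without LPS_ABS 3, 3 cytosolic members were higher and 6 lower, and 5 mitochondrial members were higher and 1 lower. That fit called 1719 of all genes higher and 2125 lower. With total counts in place of TMM the median of all genes shifted by -0.10, and the share of calls that were higher was 32.6% in place of 47.2%. The fit with total counts called 1489 of all genes higher and 3080 lower, and 4 mitochondrial members higher and 2 lower. With TMM and all libraries, the median of the cytosolic members was -0.04 and that of the mitochondrial members 0.12. The sign of their difference turned without LPS_ABS 3 (-0.162 with it, 0.062 without it).

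**Figure D4:**
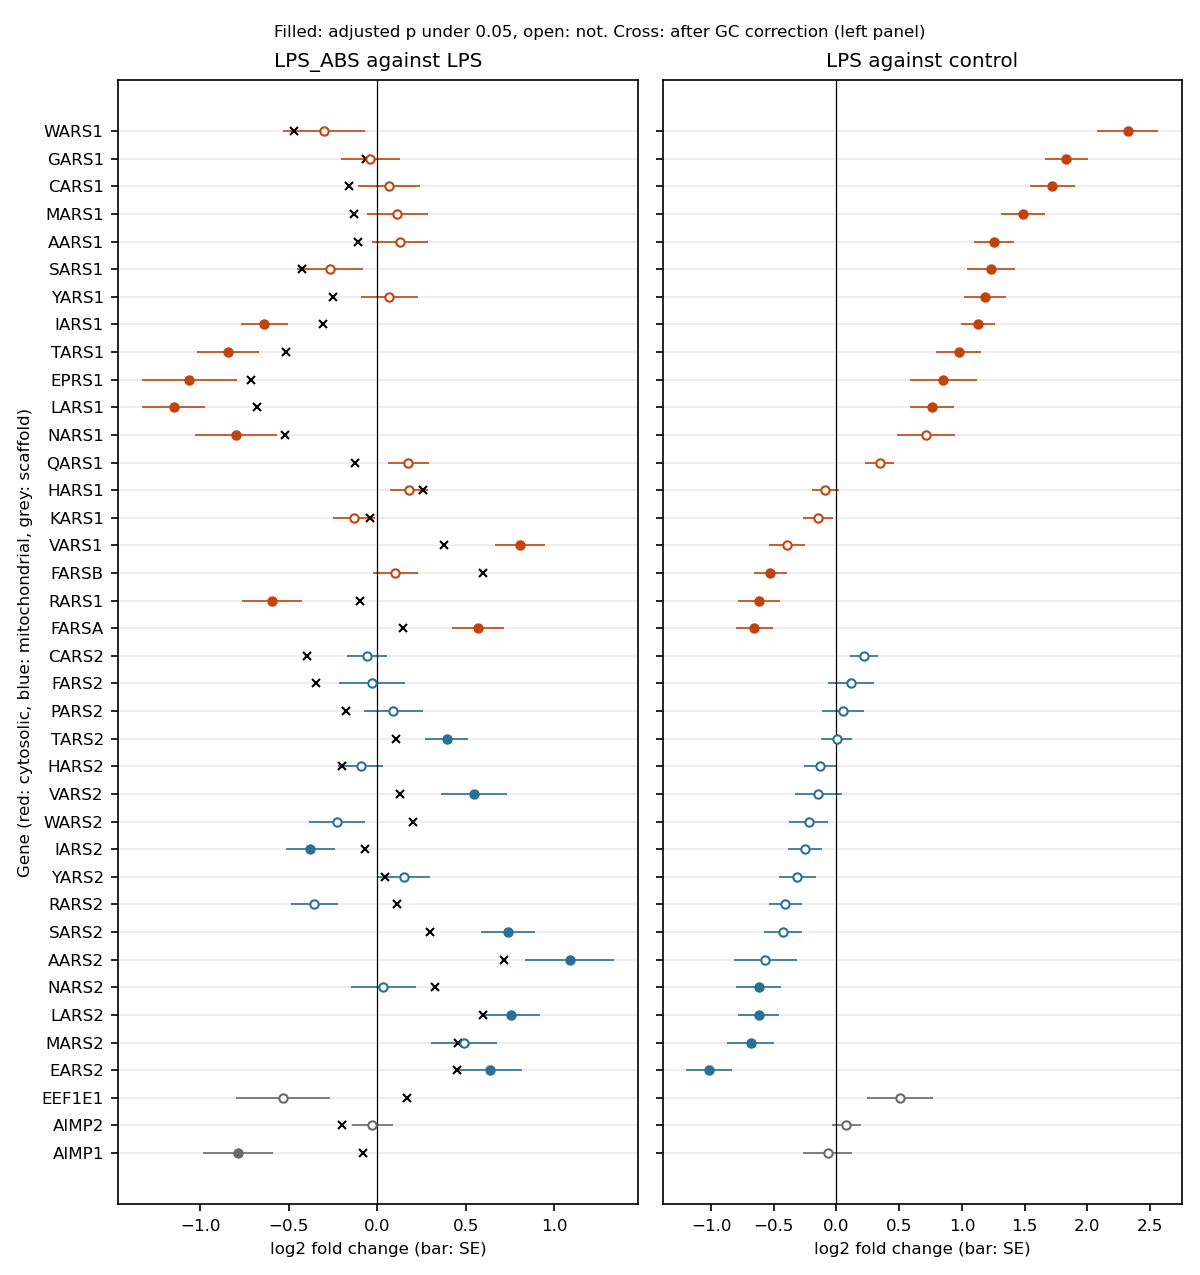
log2 fold change of the 38 genes (horizontal axis, bar: SE) for LPS_ABS against LPS (left) and LPS against control (right), with genes in rows by class, filled where the adjusted p was under 0.05, and crosses in the left panel for the value after GC correction. On the right the cytosolic genes spread up to 2.32 and the mitochondrial ones lie between -1.02 and 0.22, and on the left many crosses lie nearer to 0 than the points.

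LARS1 had the smallest adjusted p of the cytosolic members and stood at 169.6, 115 and 92.97 CPM with LPS_ABS, against 282, 278 and 277 CPM with LPS (-1.15 ± 0.18; adjusted p = 0.00358). After GC correction the difference was -0.68 (adjusted p = 0.0149). Every LPS_ABS library lay below every LPS library, and LPS_ABS 3 was the lowest. VARS1 went the other way, at 501, 454 and 530.4 CPM with LPS_ABS, against 224, 337 and 289.8 CPM with LPS (0.80 ± 0.14; adjusted p = 0.00468), and after GC correction at 0.37 (adjusted p = 0.0389). IARS1 had 304, 345 and 242 CPM with LPS_ABS, against 499, 447 and 442 CPM with LPS (-0.64 ± 0.13; adjusted p = 0.00639), and after GC correction -0.31 (adjusted p = 0.159). TARS1 had 404, 298 and 220.4 CPM with LPS_ABS, against 556, 536 and 564 CPM with LPS (-0.84 ± 0.18; adjusted p = 0.00651), and after GC correction -0.52 (adjusted p = 0.0745). Neither group overlapped the other in these 4 genes as counted, and the calls on IARS1 and TARS1 ended with the correction. EPRS1 had 341, 192 and 120.0 CPM with LPS_ABS, against 464, 441 and 459 CPM with LPS (-1.06 ± 0.27; adjusted p = 0.0118), with a wide spread among the LPS_ABS libraries. Its corrected difference was -0.71 (adjusted p = 0.0892).

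WARS1, GARS1 and CARS1 were not called between LPS_ABS and LPS. WARS1 had 1075, 1173 and 495 CPM with LPS_ABS, against 1141, 1073 and 1167 CPM with LPS (-0.30 ± 0.23; adjusted p = 0.328), and after GC correction -0.47 (adjusted p = 0.218). As counted, LPS_ABS 1 and 2 lay inside or just above the LPS range, and LPS_ABS 3 lay far below it. After GC correction WARS1 had 1023, 1080 and 434 CPM with LPS_ABS, against 1233, 1093 and 1197 CPM with LPS, with no overlap. GARS1 had 460.1, 649 and 365 CPM with LPS_ABS, against 511, 508 and 498 CPM with LPS (-0.04 ± 0.17; adjusted p = 0.865), and CARS1 had 318, 333 and 189 CPM with LPS_ABS, against 266, 262 and 275 CPM with LPS (0.07 ± 0.17; adjusted p = 0.787). LPS_ABS 3 was the lowest in each of these. KARS1 had 176, 212 and 221 CPM with LPS_ABS, against 238, 214 and 216 CPM with LPS (-0.13 ± 0.12; adjusted p = 0.397), with overlapping groups. After GC correction the differences were -0.07 for GARS1, -0.16 for CARS1 and -0.04 for KARS1, with none called. Without LPS_ABS 3, MARS1 was called higher in LPS_ABS than in LPS, at 0.33 in place of 0.11 on the log2 scale. A lack of a call does not show that the levels were alike.

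On the mitochondrial side LARS2 had 39.9, 36.6 and 56.3 CPM with LPS_ABS, against 25.6, 28.3 and 24.99 CPM with LPS (0.75 ± 0.17; adjusted p = 0.00771), and after GC correction 0.60 (adjusted p = 0.0231). All LPS_ABS libraries were above all LPS libraries, and LPS_ABS 3 was the highest. SARS2, for serine, had 41.00, 30.6 and 35.7 CPM with LPS_ABS, against 18.7, 21.7 and 23.8 CPM with LPS (0.74 ± 0.15; adjusted p = 0.00638), and after GC correction 0.30 (adjusted p = 0.138). Exons of other annotated genes, the one with the largest part on the same strand, cover 83.1% of its bases, so this count is uncertain. AARS2, for alanine, had 65.8, 80.2 and 98.6 CPM with LPS_ABS, against 26.7, 53.3 and 35.3 CPM with LPS (1.09 ± 0.25; adjusted p = 0.00873), and after GC correction 0.72 (adjusted p = 0.0521). EARS2 had 30.9, 28.98 and 47.9 CPM with LPS_ABS, against 21.3, 22.7 and 25.3 CPM with LPS (0.64 ± 0.18; adjusted p = 0.019), and after GC correction 0.45 (adjusted p = 0.0809). The groups did not overlap in these 4 genes, and only LARS2 among them was called after correction. TARS2 had 88.1, 80.7 and 71.1 CPM with LPS_ABS, against 62.3, 58.2 and 62.5 CPM with LPS (0.39 ± 0.12; adjusted p = 0.0265), and after correction its groups overlapped.
Of the scaffolds, AIMP1 had 26.8, 22.1 and 15.1 CPM with LPS_ABS, against 39.6, 36.2 and 34.8 CPM with LPS (-0.79 ± 0.20; adjusted p = 0.0117). Its transcript is among the lowest in GC content, at 36.3%, and its corrected difference was -0.08 (adjusted p = 0.723). Against control its LPS_ABS difference was -0.86 ± 0.20 (adjusted p = 0.00718), and -0.14 after correction (adjusted p = 0.511). EEF1E1 had 16.4, 20.3 and 7.84 CPM with LPS_ABS, against 24.97, 19.9 and 19.6 CPM with LPS (adjusted p = 0.13), and AIMP2 had 59.5, 60.3 and 57.4 CPM with LPS_ABS, against 56.6, 60.3 and 63.7 CPM with LPS (adjusted p = 0.868). Both overlapped. After GC correction EEF1E1 stood at 0.17, against -0.53 as counted, and AIMP2 at -0.20, against -0.03 as counted, and neither was called.

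**Figure D5:**
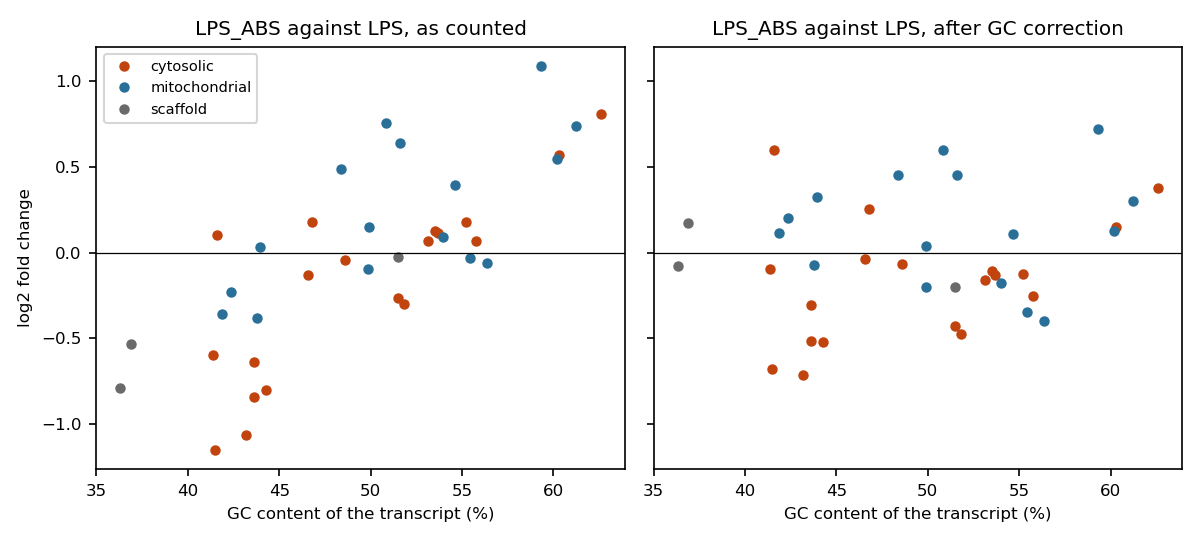
log2 fold change of LPS_ABS against LPS (vertical axis) by the GC content of the transcript in percent (horizontal axis) for the 38 genes, as counted (left) and after GC correction (right), coloured by class. As counted, 11 of the 13 genes under 45% lie below 0 and 7 of the 9 over 55% lie above 0. After correction, which takes out this trend, the rank correlation is 0.10 in place of 0.73.

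Over all libraries, 12 of the 17 pairs for the same amino acid had a lower cytosolic to mitochondrial ratio with LPS_ABS than with LPS and 5 a higher one, with a median difference of -0.26. As counted this rested on LPS_ABS 3, since without it 8 pairs were lower and 9 higher, with a median of 0.009. After GC correction 12 were lower with a median of -0.62, and without LPS_ABS 3 11 were lower with a median of -0.22. These values without a library were added after the data had been seen. In 3 pairs, EPRS1/EARS2, LARS1/LARS2 and TARS1/TARS2, both genes were called and moved in opposite directions as counted. The LARS1 over LARS2 ratio was 2.09, 1.65 and 0.72 with LPS_ABS, against 3.46, 3.301 and 3.47 with LPS, the largest difference among the 17 (-1.92, or -1.29 after GC correction). EPRS1 over EARS2 was 3.47, 2.73 and 1.32 with LPS_ABS, against 4.44, 4.28 and 4.18 with LPS, and TARS1 over TARS2 was 2.197, 1.89 and 1.63 with LPS_ABS, against 3.16, 3.204 and 3.17 with LPS. In all 3 pairs LPS_ABS 3 had the lowest ratio and the groups did not overlap. LARS1/LARS2 was the pair of these whose genes were both still called after correction.

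LPS_ABS against control shares its libraries with both comparisons above, so its values are set beside them and not counted as further evidence. As counted, 10 cytosolic members were higher (AARS1, CARS1, GARS1, IARS1, MARS1, QARS1, SARS1, VARS1, WARS1 and YARS1) and 2 lower (FARSB and RARS1). Of the mitochondrial members 1 was higher (TARS2) and 4 lower (IARS2, NARS2, RARS2 and WARS2), and of the scaffolds 0 were higher and 1 lower (AIMP1). Of all genes tested, 14.8% were called higher and 19.0% lower. With total counts in place of TMM the median of all genes shifted by -0.13, and 26.7% of calls were higher in place of 43.8%. The cytosolic split was then 8 higher and 4 lower, and the mitochondrial one 0 higher and 5 lower. The fit with total counts called 1192 of all genes higher and 3271 lower. After GC correction 61.1% of the calls were higher, 8 cytosolic members were higher and 2 lower (FARSA and RARS1), and 0 mitochondrial members were higher and 1 lower (EARS2), where 7.93% of all genes were called higher and 5.04% lower. At an unadjusted p under 0.05 the corrected fit of edgeR still had 0 mitochondrial members higher, while DESeq2 and limma-voom, without the correction, each called 1 higher. Without LPS_ABS 3, 9 cytosolic members were higher and 3 lower as counted, and 1 mitochondrial member was higher and 4 lower. That fit called 2115 of all genes higher and 2564 lower. As counted, the calls on FARSB, IARS1, VARS1, TARS2, NARS2 and WARS2 did not hold with each library left out in turn. The 8 cytosolic rises called in both were AARS1, CARS1, GARS1, IARS1, MARS1, SARS1, WARS1 and YARS1.

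With LPS_ABS, WARS1 was 2.02 ± 0.24 above control on the log2 scale (adjusted p = 0.000366), CARS1 1.79 ± 0.18 (adjusted p = 0.000213), GARS1 1.79 ± 0.17 (adjusted p = 0.000171) and MARS1 1.60 ± 0.18 (adjusted p = 0.000274). Over the same controls, LPS alone gave 2.32 for WARS1, 1.72 for CARS1, 1.83 for GARS1 and 1.49 for MARS1. TARS1 (0.13 ± 0.18; adjusted p = 0.583), LARS1 (-0.39 ± 0.18; adjusted p = 0.103) and EPRS1 (-0.21 ± 0.26; adjusted p = 0.55) were not called against control, and LPS alone gave 0.97, 0.76 and 0.85 for them. After GC correction the LPS_ABS values turned positive for LARS1 (0.12) and EPRS1 (0.18) and TARS1 stood at 0.50 (adjusted p = 0.074), with none called. The corrected values of WARS1, CARS1, GARS1 and MARS1 were 1.87, 1.57, 1.80 and 1.36, all called. The direct LPS_ABS against LPS tests of TARS1, LARS1 and EPRS1 are given above. RARS1 had 25.5, 18.6 and 23.3 CPM with LPS_ABS, against 55.3, 58.5 and 42.4 CPM in controls (-1.21 ± 0.17; adjusted p = 0.000813), and stayed lower after GC correction (-0.68; adjusted p = 0.00777). It was the largest fall among the 38 genes in this comparison. In 2 pairs both genes were called in opposite directions as counted. IARS2, the isoleucine enzyme, had 86.2, 75.6 and 106 CPM with LPS_ABS, against 138, 142 and 134 CPM in controls (-0.63 ± 0.14; adjusted p = 0.00541), while IARS1 was higher (0.49 ± 0.13; adjusted p = 0.0152). WARS2, the tryptophan enzyme, had 8.43, 9.37 and 8.51 CPM with LPS_ABS, against 11.4, 13.1 and 11.4 CPM in controls (-0.45 ± 0.16; adjusted p = 0.0429), beside the rise of WARS1. After GC correction neither IARS2 (-0.28; adjusted p = 0.123) nor WARS2 (0.02; adjusted p = 0.933) was called.

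Relative to the control mean, the median over the cytosolic members minus that over the mitochondrial members was 0.69, 0.42 and 0.09 in the LPS_ABS libraries, 1.196, 1.11 and 1.17 in the LPS libraries and 0.04, -0.06 and 0.03 in the controls. After GC correction it was 0.99, 0.54 and 0.20 with LPS_ABS, 1.04, 1.17 and 1.21 with LPS and 0.02, -0.06 and 0.02 in controls. All LPS_ABS libraries lay between the other 2 groups on both scales, with LPS_ABS 3 nearest to the controls. The difference between the class medians for LPS_ABS against control was 0.45, and 0.52 without LPS_ABS 3.

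Other genes of transfer RNA charging and delivery were taken from a list of 23, of which 22 were tested. With LPS, 2 were higher (9.09%), 2 lower (9.09%) and 18 not called, close to the 7.71% and 7.19% of all genes. ATF4 had 1637, 1539.5 and 1639 CPM with LPS, against 493, 483 and 487 CPM in controls (1.72 ± 0.15; adjusted p = 7.17e-05). XPOT, which exports transfer RNA from the nucleus, had 344, 336 and 329 CPM with LPS, against 170.4, 185 and 137 CPM in controls (1.03 ± 0.19; adjusted p = 0.00399). Both rose in all 3 LPS libraries beyond every control. The lower ones were ELAC2, which trims the 3′ ends of precursor transfer RNAs (-0.58 ± 0.17; adjusted p = 0.0406), and TSFM, the mitochondrial elongation factor Ts (-0.47 ± 0.14; adjusted p = 0.041). EIF2AK4, the kinase that senses uncharged transfer RNA, had 52.1, 57.00 and 54.9 CPM with LPS, against 55.1, 55.3 and 51.6 CPM in controls (0.02 ± 0.18; adjusted p = 0.961). Its groups overlapped.

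With LPS_ABS against LPS, 3 genes of the list were higher (TUFM, GCN1 and ELAC2) and 3 lower (EEF1A1, SEPSECS and XPOT), 13.6% in each direction against 16.8% and 18.8% of all genes. After GC correction 1 was higher (GATC) and 1 lower (ATF4), where 4.98% and 4.21% of all genes were called. EEF1A1, the cytosolic elongation factor that delivers charged transfer RNA, had 8466, 8993 and 8039 CPM with LPS_ABS, against 11995, 11632 and 11091 CPM with LPS (-0.45 ± 0.08; adjusted p = 0.00501). It has many processed pseudogenes, which can share its reads. TUFM, its mitochondrial counterpart, had 506, 386 and 396 CPM with LPS_ABS, against 280.4, 278 and 285 CPM with LPS (0.61 ± 0.12; adjusted p = 0.00596). SEPSECS, which makes selenocysteinyl-tRNA, had 5.60, 4.09 and 2.61 CPM with LPS_ABS, against 10.5, 7.43 and 10.9 CPM with LPS (-1.23 ± 0.26; adjusted p = 0.0065), and XPOT fell by 0.80 on the log2 scale (adjusted p = 0.00952). The groups did not overlap in these genes. After correction the values were -0.31, 0.23, -0.57 and -0.29 in that order of genes, and none was called. ATF4 had 1549, 1496 and 1003 CPM with LPS_ABS, against 1637, 1539.5 and 1639 CPM with LPS (-0.25 ± 0.14; adjusted p = 0.185), and after correction -0.60 (adjusted p = 0.0305). EIF2AK4 was not called as counted (-0.31 ± 0.18; adjusted p = 0.183). Against control, LPS_ABS gave 3 higher and 5 lower genes of the list as counted, where 14.8% of all genes were higher and 19.0% lower. After correction 2 were higher and 0 lower, where 7.93% and 5.04% of all genes were called. At an unadjusted p under 0.05 the corrected fit of edgeR had 3 lower, and DESeq2 and limma-voom each called 5 lower without the correction.

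Set against the sequences above, 6 of the 7 cytosolic genes with the core TGATGNAA in the window (AARS1, CARS1, GARS1, IARS1, MARS1 and TARS1) were called higher with LPS. The share was 7.71% of all genes, and 11 of all 19 cytosolic members, with or without the core. The remaining gene with the core, NARS1, stood at 0.71 ± 0.23 (adjusted p = 0.0544). YARS2, the mitochondrial gene with the core, stood at -0.31 ± 0.15 (adjusted p = 0.178). Among cytosolic genes without the core in their windows, WARS1, SARS1 and EPRS1 were also called higher, FARSA, FARSB and RARS1 were called lower, and HARS1, KARS1 and QARS1 were not called. LARS1 and YARS1, called higher too, had no window, nor had VARS1. The letters were searched with these values known, and no test was made of them.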

How the data were processed

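The mRNA of PMA-treated THP-1 cells was sequenced in 9 libraries. TRIzol was used for total RNA and 2 library preparation kits are given for each sample, per the labels' protocols. The submitters' processing notes name fastp, HISAT2, HTSeq, R 3.2.0 and DESeq2, with no role or order. Genome build, annotation and strand setting are not given in the sources used here. The authors deposited raw read counts and FPKM values for 16222 genes. Checked in every gene, these deposited FPKM are the counts over 1 fixed gene length and the library total, to a relative 1.5e-13.

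The count test was that of edgeR 4.0.16 under R 4.3.3 (filterByExpr, TMM, quasi-likelihood F test of 3 group means over all 9 libraries, 6 residual degrees of freedom), adjusted by Benjamini-Hochberg over 12970 genes and called under 0.05. The genes tested held 99.985% of counts. The common coefficient of variation was 18.4%. No libraries of a group were duplicates, with a chi-square per degree of freedom of at least 7.07. GC correction used a lowess trend (span 0.3) on GC content of GENCODE v29 transcripts as an offset, with a value for 99.34% of genes. The trend was that of log2 CPM minus each gene's mean over the libraries. The fits were tested on simulated data.

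Every library's value is given for the 4 members of each class with the smallest adjusted p in LPS against control and LPS_ABS against LPS, the scaffolds, GARS1, KARS1, WARS1 and pairs with opposite calls. A gene list of charging and delivery was counted whole, with 4 genes named per comparison besides ATF4 and EIF2AK4. AARSD1, the gene of that list not tested, had too few counts. Members, lists and motifs were chosen with earlier results of these data known. Alternatives were DESeq2 1.42.0, limma 3.58.1 (voom), total-count scaling, no filter, the 2 groups only, the replicate block, GC correction, and leaving out each library. Promoter windows are from RefSeq (GRCh38.p14), and shared exon bases from GENCODE v29, whose build need not be the authors'.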

Additional observations from a re-analysis of the deposited data

How the results depend on the processing

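The direction of the class medians held under every alternative run for LPS against control, where cytosolic minus mitochondrial ranged from 1.090 to 1.180 with 1 library left out, and for LPS_ABS against control. For LPS_ABS against LPS it was -0.162, was between -0.320 and 0.062 with 1 library left out, and turned only when LPS_ABS 3 was the one left out. It was -0.053 without GARS1 and KARS1, which serve both compartments, -0.248 after GC correction and -0.284 with the replicate block added to that. The median difference of the pairs was -0.263, was between -0.491 and 0.009 with 1 LPS_ABS library left out, and also turned without LPS_ABS 3. In LPS against control the count of genes called was 1933, 3245 in a fit of the 2 groups only, and 873 to 1698 with 1 library left out, where cytosolic calls numbered 9 to 13 (14 with all libraries) and mitochondrial calls 1 to 2 (4 with all).

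In LPS_ABS against LPS 4621 genes were called, 3042 in a fit of the 2 groups only, 1192 after GC correction and 726 after GC correction without LPS_ABS 3. With 1 library left out 2360 to 4918 were called. Of the cytosolic members 8 were called, 3 after GC correction, 2 after it without LPS_ABS 3, and 5 to 9 with 1 library left out. Of the mitochondrial members 7 were called, 3 in a fit of the 2 groups only, 2 after GC correction, 1 after it without LPS_ABS 3, and 3 to 6 with 1 library left out.

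In LPS_ABS against control 4388 genes were called, 1682 after GC correction, 2614 after it without LPS_ABS 3, and 2351 to 4679 with 1 library left out. Of the mitochondrial members 5 were called, 1 after GC correction, 2 after it without LPS_ABS 3, and 2 to 5 with 1 library left out. Of the 38 members 11 had the opposite sign after GC correction in this comparison, 2 of which were called as counted, and 9 in LPS_ABS against LPS, of which 0 were called as counted or corrected. The 2 called ones were FARSB (0.111 after GC correction, 0.105 with the block, 0.090 without LPS_ABS 3) and WARS2 (0.023, 0.022 and 0.039 in that order). Among members called as counted or in the fit named, EPRS1 stood at 0.480 and VARS1 at -0.051 after GC correction without LPS_ABS 3, and EEF1E1 at 0.880 there and 0.621 with the block, each opposite in sign to its value as counted.

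Same-numbered libraries correlated at -0.035 to 0.203 in their deviations from the group means, and libraries with different numbers at -0.204 to 0.172. With 3 libraries a group, these values cannot decide whether the numbers pair the libraries. A fit with the replicate block called 1960 genes for LPS against control, 4838 for LPS_ABS against LPS and 4573 for LPS_ABS against control. With GC correction and the replicate block together 1411 and 1759 genes were called in the comparisons with LPS_ABS, with 6 and 10 cytosolic and 2 and 1 mitochondrial members. The 6 for LPS_ABS against LPS, against 3 without the block, took in EPRS1 (-0.789; adjusted p = 0.0445), NARS1 and TARS1, and left FARSB, LARS1 and VARS1 called. The 2 mitochondrial ones there were AARS2 (0.696; adjusted p = 0.0249) and LARS2, both higher. CARS2, called lower with GC correction alone, was not among them. The cause of these shifts was not tested. The lowest count of a member in any library was 165, and the effect of depth was not varied.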
